A study of Rattus norvegicus with 16 samples.

Results

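The endothelial leukocyte adhesion molecules Icam1, Sele, Selp and Vcam1 were followed in rat cortex after traumatic brain injury. They were chosen by gene symbol: every probe set of the array whose only annotated gene was one of these 4, by symbol or alias, was taken. This gave 5 of the 20832 probe sets with a single gene symbol, 2 of them for Selp, and 4 of the 14218 genes measured. All rats were male Wistar animals, 8 weeks old, in which the skull over the right parietal cortex had been opened (a craniectomy, 4.8 mm across) 48 h before the procedure. The injured groups received a moderate fluid percussion (3.3 ± 0.3 atm), a pressure pulse against the exposed dura, and were killed 3, 6, 12 or 48 h later, with 3 arrays at each time. The sham groups received the same surgery without the pulse, with 1 array at each time. The 48 h sham was the study's control for the 48 h injury, and the shams of 3, 6 and 12 h, called early shams here, formed a control group of 3 arrays. Because the shams had the craniectomy too, the comparisons set the pulse against the surgery alone. Brains had been perfused with saline, and polyadenylated RNA came from the whole cortex of the contusion area, so endothelial cells were one cell type among many.

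These molecules guide leukocytes out of the blood. The selectins E-selectin (Sele) and P-selectin (Selp) bind carbohydrate ligands and let leukocytes roll along the vessel wall; P-selectin is also stored ready-made in endothelial granules and in platelets. Icam1 and Vcam1 belong to the immunoglobulin superfamily and hold the slowed cells through integrins: Icam1 binds the beta 2 integrins made of Itgal or Itgam with Itgb2, and Vcam1 binds an integrin made of Itga4 with Itgb1. In resting brain vessels the levels of these proteins are low, and the cytokines Tnf and interleukin 1 raise them largely through the transcription factor NF-kB.

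The sequences before the start of Icam1 and Vcam1 are shown because both genes are textbook targets of NF-kB, whose components were measured on the same arrays. The sequences are RefSeq's on build GRCr8, 5′ to 3′ on the gene's strand. Capitals mark matches to GGG followed by any 5 bases and CC, a loose form of the letters that NF-kB binds, or to GGAAATTCC, both searched on both strands. The Icam1 stretch ends where the gene begins in RefSeq's annotation. No window was available for Selp. The Sele window was searched too but lay inside the gene, before a start site 517 bases past its first base. It held no match to either motif and is not shown.
Icam1 (chr8:27829595-27829687, plus strand): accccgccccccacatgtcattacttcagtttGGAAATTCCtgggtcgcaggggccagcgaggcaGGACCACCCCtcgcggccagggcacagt
Vcam1 (chr2:206742784-206743033, minus strand): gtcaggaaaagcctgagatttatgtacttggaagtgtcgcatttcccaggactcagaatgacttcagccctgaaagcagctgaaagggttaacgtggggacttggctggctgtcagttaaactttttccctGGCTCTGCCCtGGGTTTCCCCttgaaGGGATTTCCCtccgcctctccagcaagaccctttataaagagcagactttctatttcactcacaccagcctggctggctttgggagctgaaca
The Icam1 stretch held GGAAATTCC and a match to the looser motif on the other strand, and the Vcam1 stretch held 3 matches to the looser motif in a row, with no overlap. In the 250 bases before the start, the looser motif occurred in 42.32% of the 33469 windows in the table and GGAAATTCC in 0.29%. The Icam1 stretch is 93 of its 250 bases, because that window's start site lay 157 bases past the gene's first base. The looser motif occurred at 2 or more positions in 21.35% of the windows. A match describes letters only, since binding was not measured in these rats.

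All values are logarithms of array signal, on a scale taken as base 2, and as deposited each probe set has a median of 0 over the 16 arrays. A value of 1 is therefore 2 times the probe set's median signal, and levels can be compared between arrays but not between genes. No array was a copy of another: the root mean square difference was smallest, at 0.202, for injured 3 h replicates 2 and 3. The spike-in RNA controls of injured 12 h replicate 2 averaged -1.69, against -0.18 to 0.50 in the other 15 arrays, while its hybridization controls were at -0.09. Differences are given with the standard error (SE) of a limma model of all 16 arrays, and a gene was called when its p, adjusted by Benjamini and Hochberg over the 14218 genes, was under 0.05.

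Icam1 had its highest mean at 3 h and Sele at 6 h, and both were called higher than in shams at 6 and 12 h. Vcam1 was 1.93-fold and 1.85-fold higher at 3 and 6 h without passing the test, and Selp had the narrowest range. Over the 16 arrays the signal spanned 4.78 log2 units for Sele and 3.49 for Icam1, against 1.84 for Vcam1 and 0.62 for Selp. The Selp span is of the mean of 2 probe sets, of which 1391946_at ran from -0.26 to 0.69 by itself. The other members have 1 probe set each. Of all genes, 99.79%, 99.35%, 96.26% and 59.49% had a span no wider than that of Sele, Icam1, Vcam1 and Selp. At 3 h Icam1 was the 1 member of 4 called higher, and 0.485% of all genes were. At 6 h Icam1 and Sele were called higher, against 1.98% of all genes, and the same 2 were called at 12 h, against 3.49%. The injured arrays lay above all 3 early shams for 2 members at 3 h, for all 4 at 6 h and for 2 at 12 h, which held for 7.5%, 10.8% and 10.5% of all genes.

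Icam1, the ligand of leukocyte beta 2 integrins (probe set 1387202_at), had a centred signal of 0.73, 1.20 and 1.44 at 3 h, 0.97, 0.96 and 0.66 at 6 h, -0.10, 0.44 and 0.10 at 12 h and -1.18, -0.57 and -1.50 at 48 h in injured cortex. The 48 h sham had -1.36 and the early shams -2.05, -1.75 and -1.82. Every injured array from 3 to 12 h lay above every sham array. Against the early shams the signal was 7.98-fold higher at 3 h (log2 3.00 ± 0.22, adjusted p = 1.02e-05) and 6.67-fold higher at 6 h (2.74 ± 0.22, adjusted p = 1.85e-05). At 12 h it was still 4.06-fold higher (2.02 ± 0.22, adjusted p = 0.000215). In whole cortex, fewer cells of a type and less RNA per cell cannot be told apart, and which cells carried the RNA was not measured.

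Sele, the selectin made by activated endothelium (probe set 1388018_at), had -1.55, 1.08 and 2.58 at 3 h, 3.23, 3.13 and 3.15 at 6 h, 1.08, 2.00 and 2.61 at 12 h and -1.08, -1.28 and -1.32 at 48 h in injured cortex. The 48 h sham had -1.11 and the early shams -1.50, -1.18 and -1.35. The 6 h arrays lay within 0.1 of each other and above every other array, whereas of the 3 h arrays replicate 1 lay below all 4 shams and replicate 3 lay close to the highest 12 h array. Against the early shams Sele was 22.8-fold higher at 6 h (log2 4.51 ± 0.70, adjusted p = 0.00274) and 9.45-fold higher at 12 h (3.24 ± 0.70, adjusted p = 0.0172). The 12 h call was lost without injured replicate 2 or without early sham 1 or 2, at an adjusted p of 0.0609, 0.0609 and 0.0597. Against only the sham of the same time, 1 array, neither the 6 h nor the 12 h difference passed (adjusted p = 0.152 and 0.314).

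At 3 h the mean difference of Sele was 2.05 ± 0.70 and did not pass (adjusted p = 0.324). Without injured 3 h replicate 1 it was 3.17 ± 0.40 (adjusted p = 0.00283). Icam1, in contrast, had 0.73 in that array, above all shams, and the cytokine genes Il1a and Tnf were at 4.80 and 1.42 there, against 4.34 and 0.98 in replicate 2 and 4.14 and 0.92 in replicate 3. The same 3 arrays also differed in Ttr, the transport protein made by choroid plexus, at 1.35, 5.16 and 5.98. Of the 5 measured choroid plexus markers of 6, Ttr was the one that differed widely, and the other 4 (Kl, Folr1, Kcnj13 and Kcne2) lay between -0.19 and 0.25 in these arrays. The mean of the 5 markers was 0.18 to 1.32 at 3 h, -0.13 to 0.18 at 6 h, 0.08 to 1.18 at 12 h and -0.24 to -0.12 at 48 h in injured cortex, against -0.15 in the 48 h sham and -0.05 to -0.04 in the early shams. At 6 h, with all 3 Sele values high, Ttr was at -0.65, 1.07 and -0.27. At 12 h it was at 1.97, 0.11 and 5.49, and replicate 3, the highest in Ttr, was also the highest in Sele (2.61). The part of Ttr or of choroid plexus tissue in the Sele values was not tested. Tnf and Ttr, and Il1a in these arrays, were picked after their values were seen.

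**Figure D1:**
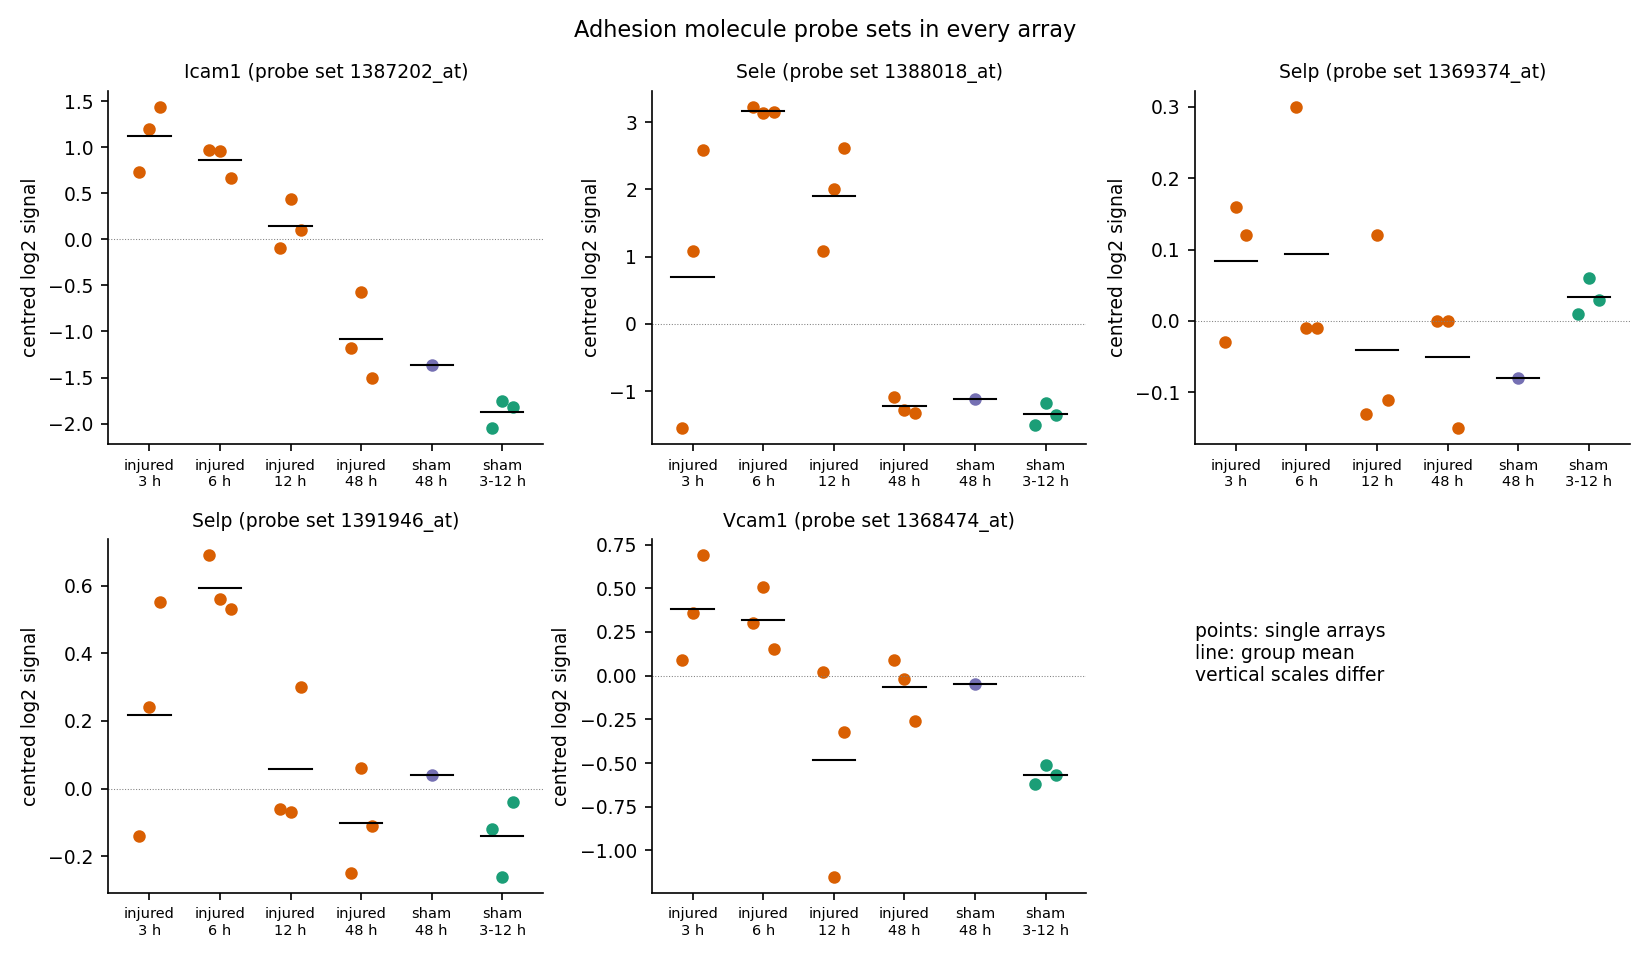
Centred log2 signal (vertical axis, with a scale of its own in each panel) of the 5 probe sets in every array, by group; points are arrays and lines are group means. The Sele points at 6 h lie between 3.13 and 3.23, while those at 3 h run from -1.55 upward to 2.58.

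Selp, the selectin of endothelial and platelet granules, was read by 2 probe sets, of which 1 passed the test by itself at 6 h. The one designed from an expressed sequence tag (1391946_at) had -0.14, 0.24 and 0.55 at 3 h, 0.69, 0.56 and 0.53 at 6 h, -0.06, -0.07 and 0.30 at 12 h and -0.25, 0.06 and -0.11 at 48 h in injured cortex, against 0.04 in the 48 h sham and -0.12, -0.26 and -0.04 in the early shams. All 3 arrays of 6 h lay above every sham. By itself this probe set was higher at 6 h by 0.73 ± 0.15 (adjusted p = 0.0197 over all probe sets with 1 symbol). The one designed from the RefSeq mRNA (1369374_at) stayed between -0.15 and 0.30 in all 16 arrays, and its 6 h difference was 0.06 ± 0.10 (adjusted p = 0.86).

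The mean of both Selp probe sets was higher at 6 h by 0.40 ± 0.10, 1.32-fold, which missed the threshold (adjusted p = 0.0617). At 3 and 12 h the differences were 0.20 ± 0.10 and 0.06 ± 0.10 (adjusted p = 0.589 and 0.788). Over the 16 arrays the 2 probe sets had a Pearson r of 0.424, given as a description of arrays that share groups. Which of them follows the P-selectin transcript better cannot be read from centred values. Of the 6 measured platelet markers of 8, limma called none at any time against the early shams, and at most 1 at a time had an unadjusted p under 0.05. Their mean lay between -0.14 and 0.29 in injured arrays, against -0.04 in the 48 h sham and -0.02 to 0.10 in the early shams. Of the 4 measured red cell markers of 5, the globin gene Hbb was the 1 called at 6 h, at 1.47, 2.71 and 1.45, against -2.16, -2.57 and -1.29 in the early shams. At 6 h Slc4a1 and Hemgn lay between -0.18 and 0.12. Alas2 was at 0.11, 0.76 and 0.23, against 0.17, -0.33 and -0.05 in the early shams. The median difference of the red cell list at 6 h was 0.22, and 2 of its 4 measured markers had an unadjusted p under 0.05. The part of blood RNA in the Selp values was not tested.

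Vcam1, the ligand of the integrin made of Itga4 and Itgb1 (probe set 1368474_at), had 0.09, 0.36 and 0.69 at 3 h, 0.30, 0.51 and 0.15 at 6 h, 0.02, -1.15 and -0.32 at 12 h and 0.09, -0.02 and -0.26 at 48 h in injured cortex. The 48 h sham had -0.05 and the early shams -0.62, -0.51 and -0.57. Every injured array of 3, 6 and 48 h lay above the 3 early shams, and at 12 h replicate 2 lay below all other arrays. The difference was 0.95 ± 0.23 at 3 h (1.93-fold, adjusted p = 0.116) and 0.89 ± 0.23 at 6 h (1.85-fold, adjusted p = 0.0602). Neither passed the threshold, and their 95% confidence intervals were 0.45 to 1.44 and 0.39 to 1.38. Both passed in a fit of only the arrays compared (adjusted p = 0.0204 and 0.00117). Of 15 alternative settings, 3 passed at 3 h and 4 at 6 h. None of the 6 fits that left out 1 array passed at either time. At 12 h the difference was 0.08 ± 0.23 (adjusted p = 0.882). The lowest Vcam1 array, at 12 h, was the one with the low spike-in controls. It also had the widest spread over all probe sets, with an SD of 0.352. Injured 48 h replicate 2 came next at 0.347, and 12 h replicates 1 and 3 had 0.226 and 0.231. Without the lowest array the 12 h Vcam1 difference was 0.42 (adjusted p = 0.284). The part of the spike-in difference or of the spread was not tested.

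At 48 h Icam1 was called against the early shams and not against the 48 h sham, and no other member was called against either. Against the early shams Icam1 was 1.73-fold higher (log2 0.79 ± 0.22, adjusted p = 0.0402), the 1 member of 4 called, against 6.37% of all genes. Icam1 and Vcam1 had all 3 injured arrays above the early shams, as 14.7% of all genes did. The Icam1 call was lost when any of 5 of the 6 arrays was left out, with differences of 0.53 without injured 48 h replicate 2 and 0.70 to 0.85 without the others, and with quantile normalization (0.44, adjusted p = 0.236). Against the 48 h sham the difference was 0.28 ± 0.32 (adjusted p = 0.899), with a 95% confidence interval of -0.40 to 0.96. Sele differed by 0.12 ± 0.70 from the early shams (adjusted p = 0.943) and by -0.12 ± 0.99 from the 48 h sham (adjusted p = 0.992).

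Vcam1 at 48 h was higher by 0.50 ± 0.23 than the early shams (adjusted p = 0.191) and differed by -0.01 ± 0.33 from the 48 h sham (adjusted p = 0.998). For Selp these differences were -0.02 ± 0.10 and -0.06 ± 0.15. With a lone 48 h sham the test had little reach: limma called 0% of all genes at an adjusted p under 0.05, and 7.46% had an unadjusted p under 0.05, none of the 4 members among them. The 48 h sham itself was higher than the early shams by 0.51 ± 0.32 in Icam1 and by 0.52 ± 0.33 in Vcam1, which did not pass (adjusted p = 0.814 and 0.824), in a comparison that called 0.00703% of all genes. It lay above all 3 early shams for 3 members (Icam1, Sele and Vcam1), as it did for 27.4% of all genes. The 2 comparisons at 48 h share the injured arrays.

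**Figure D2:**
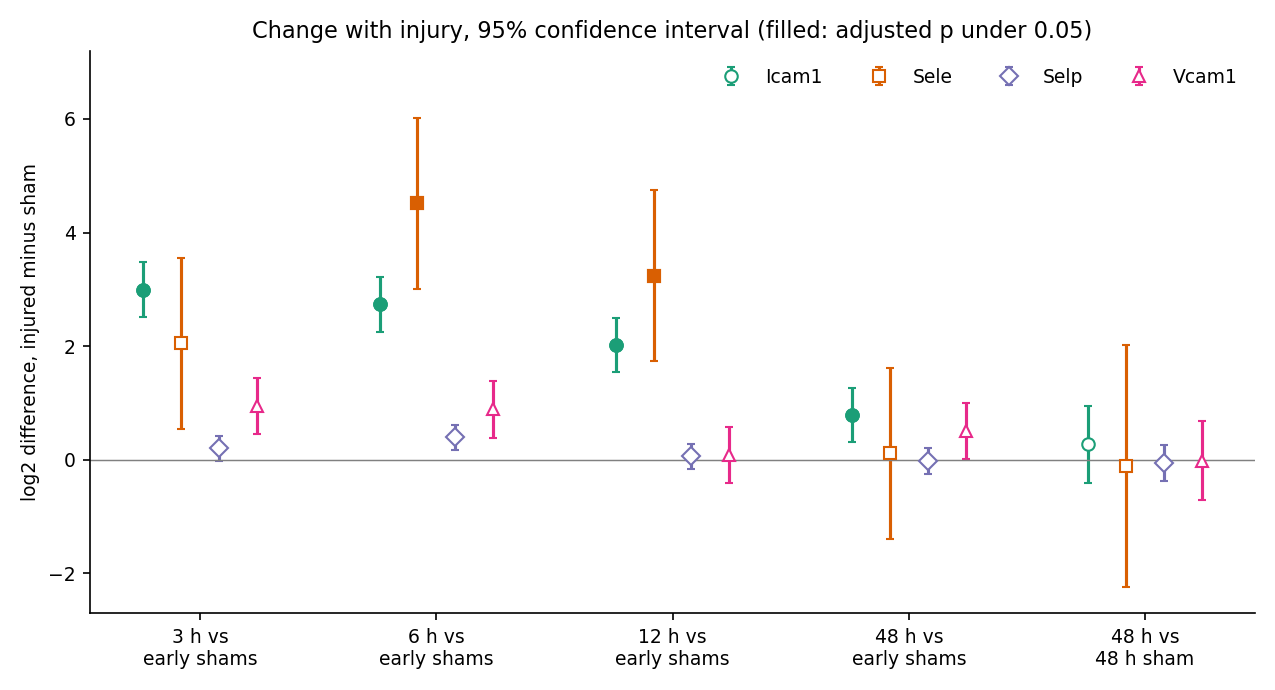
Log2 difference of injured minus sham (vertical axis) for the 4 genes in 5 comparisons, with 95% confidence intervals from limma; filled symbols passed an adjusted p under 0.05. Icam1 is filled in all 4 comparisons with the early shams and Sele at 6 and 12 h, and the Sele intervals are the widest.

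The steps between times compare injured groups only, and the shams enter them only through the model's shared spread. Between 3 and 6 h Sele was higher at 6 h by 2.47 ± 0.70, with all 6 h arrays above those of 3 h, as for 13.1% of all genes, but it did not pass (adjusted p = 0.116), and limma called 1.2% of all genes in either direction. For 6 h against 3 h the differences were -0.26 ± 0.22 in Icam1, 0.19 ± 0.10 in Selp and -0.06 ± 0.23 in Vcam1. At 12 h all 3 arrays lay below those of 6 h for all 4 members, which 5.39% of all genes did. The differences of 12 h against 6 h were -1.27 ± 0.70 in Sele, -0.80 ± 0.23 in Vcam1, -0.72 ± 0.22 in Icam1 and -0.34 ± 0.10 in Selp, and none passed (adjusted p = 0.628, 0.369, 0.398 and 0.398), in a step in which 0.0141% of all genes were called.

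Icam1 and Sele fell in the last step. Icam1 at 48 h was lower than at 12 h by a log2 difference of -1.23 ± 0.22 (adjusted p = 0.00295) and Sele by -3.12 ± 0.70 (adjusted p = 0.0095), and 7.14% of all genes were called lower. For both, all 48 h arrays lay below those of 12 h, as for 13.3% of all genes. Vcam1 differed by 0.42 ± 0.23 (adjusted p = 0.248) and Selp by -0.08 ± 0.10 (adjusted p = 0.649). Ordered by group mean, Icam1 was highest in injured 3 h (1.12 ± 0.36, SD, n = 3), followed by 6 h (0.86 ± 0.18), 12 h (0.15 ± 0.27), 48 h (-1.08 ± 0.47), the 48 h sham and the early shams (-1.87 ± 0.16, n = 3). Of these neighbours, 3 h and 6 h overlapped, as did injured 48 h and the 48 h sham. For Sele the order was 6 h (3.17 ± 0.05), 12 h (1.90 ± 0.77) and 3 h (0.70 ± 2.09), with 6 h clear of 12 h, and then the 48 h sham, injured 48 h and the early shams, where neighbours overlapped. For Vcam1, 3 h (0.38 ± 0.30) and 6 h (0.32 ± 0.18) led and overlapped, and 6 h lay clear of the 48 h sham that followed. For Selp every neighbouring pair of groups overlapped.

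Many genes listed as inducers of these molecules or as NF-kB components were higher early after injury. Their part in the changes of the members was not tested. Of 13 measured genes in a list of 14 inducers and NF-kB components, 8 were called higher at 3 h, 10 at 6 h, 8 at 12 h and 1 at 48 h against the early shams, and none lower. Of all genes, 0.485%, 1.98%, 3.49% and 6.37% were called higher at these times. The list, like the others, was chosen with earlier results of these data known, so its counts are a description. The list's median difference was 0.92, 1.01, 0.66 and 0.23, against -0.01, -0.02, -0.02 and -0.01 for all genes. Il1a, a ligand of the interleukin 1 receptor, was higher by 5.10 ± 0.30 at 3 h (adjusted p = 7.94e-07), and its 6 h signal was lower than that of 3 h by a log2 difference of -2.76 ± 0.30 (adjusted p = 0.00081). Tnfaip3, an inhibitor of NF-kB that the factor itself induces, was higher by 2.72 ± 0.23 at 3 h (adjusted p = 4.08e-05) and 2.93 ± 0.23 at 6 h (adjusted p = 1.85e-05). Irf1, an interferon-regulated transcription factor, was higher by 2.81 ± 0.34 at 12 h (adjusted p = 0.000341). Il1b, the other interleukin 1 receptor ligand, had the largest change of the list at 3 and at 6 h, 5.14 ± 0.39 and 5.21 ± 0.39 (adjusted p = 1.06e-05 and 1.59e-05), and its step between these times was 0.08 ± 0.39 (adjusted p = 0.956). At 12 h Il1b was still higher than in the early shams by 2.88 ± 0.39 (adjusted p = 0.000862). It was added to the genes named here after its values were seen, as were the single red cell markers beside Selp. Of 13 measured genes in a list of 14 other genes that cytokines induce in endothelium, 5, 8, 7 and 2 were called higher at 3, 6, 12 and 48 h, and none lower.

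Against the early shams, the genes that leukocytes use to bind these molecules were called mostly at 12 and 48 h. Of 11 measured ligands and integrins in a list of 14, limma called none at 3 h, where 2 had an unadjusted p under 0.05. Called higher were 2 at 6 h, 4 at 12 h and 6 at 48 h against the early shams, and none lower. Itga4, a chain of the Vcam1 receptor, was not among the 11, so these counts do not cover it. The list's median difference was 0.12, 0.52, 0.66 and 0.60 against the early shams. At 48 h it was 0.36 against the lone 48 h sham. Cd44, a ligand of E-selectin that many cells of injured tissue make, had -1.34, -0.61 and -0.84 at 3 h and 0.82, 1.19 and 1.39 at 6 h in injured cortex, against -1.19, -1.22 and -1.29 in the early shams. It was higher by 2.37 ± 0.41 at 6 h (adjusted p = 0.00621) and by 2.74 ± 0.41 at 12 h (adjusted p = 0.00177).

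Itgal, the alpha chain of the Icam1 receptor LFA-1, had 1.29, 1.84 and 0.44 at 48 h after injury, against 0.49 in the 48 h sham and -0.78, -0.54 and -0.37 in the early shams. It was higher than the early shams by 1.75 ± 0.25 (adjusted p = 0.00136), and its partner chain Itgb2 by 1.42 ± 0.29 (adjusted p = 0.00976). Against the 48 h sham these differences were 0.70 ± 0.35 and 0.68 ± 0.42 (adjusted p = 0.704 and 0.773). Of 11 measured genes that activate integrins or drive crawling, in a list of 12, 1 was called higher at 3 h, 1 at 6 h, 2 at 12 h and 9 at 48 h against the early shams, with a median difference of 0.72 at 48 h. Against the 48 h sham limma called none of the 11, 3 had an unadjusted p under 0.05, and the median was 0.37. The 48 h sham itself differed from the early shams by a median of 0.46 over these genes, with none called and 5 at an unadjusted p under 0.05. Of 7 measured genes that build the sugars of selectin ligands, in a list of 9, limma called none, while 0, 1, 2 and 4 had an unadjusted p under 0.05 at 3, 6, 12 and 48 h, with a median difference of 0.05 to 0.24. The mean of the 7 measured neutrophil markers of 9 was 0.92 to 1.92 at 6 h and 1.44 to 2.18 at 12 h, against -0.46 to -0.22 in the early shams. Of these neutrophil markers 2 were called higher at 6 h and 3 at 12 h, with a median difference of 0.695 and 1.36. At 6 h S100a8 was at 2.54, 4.91 and 3.85 and S100a9 at 3.45, 5.51 and 4.54, while Csf3r was at -0.73, 0.17 and -0.01. The mean of the 7 measured microglia markers of 8 was 1.18 to 1.64 at 48 h, against 0.51 in the 48 h sham and 0.02 to 0.42 in the early shams. Of these microglia markers 3 were called lower at 12 h and 5 were called higher at 48 h than in the early shams, with a median difference of 1.19, and all 7 rose between 12 and 48 h, when 8.19% of all genes were called higher. The mean of the 7 monocyte markers was -0.13 to 1.37 at 48 h, against 0.17 in the 48 h sham and -0.61 to -0.47 in the early shams. The part of these cells in the list counts was not tested.

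**Figure D3:**
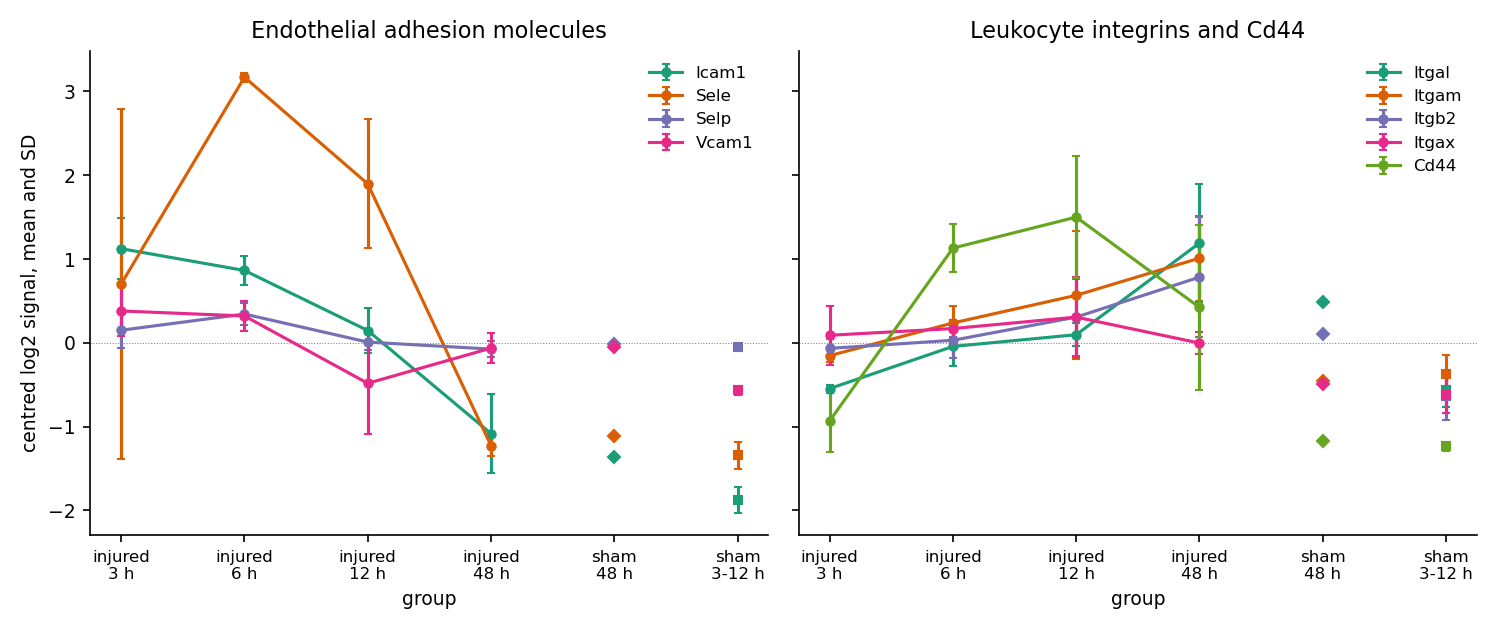
Group means of the centred log2 signal (vertical axis) for the 4 endothelial molecules (left) and 5 leukocyte genes (right); bars are SD of 3 arrays, and the lone 48 h sham (diamond) has none. Sele is highest at 6 h with a mean of 3.17, and Itgal is highest at 48 h with a mean of 1.19.

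Among other genes of adhesion, junctions and endothelium, calls went in both directions. The list of adhesion and junction partners and the endothelial marker list share Pecam1 and Esam, so the Esam call at 6 h counts in both. Of 16 measured adhesion and junction partners in a list of 18, limma called none at 3 h, where 4 had an unadjusted p under 0.05; 2 were called higher and 1 lower at 6 h, 1 higher and 2 lower at 12 h, and 1 higher at 48 h against the early shams, while 0.682% and 1.38% of all genes were called lower at 6 and 12 h. Mcam, an adhesion molecule of vessel walls, was higher by 1.12 ± 0.18 at 6 h (adjusted p = 0.00321) and 1.06 ± 0.18 at 12 h (adjusted p = 0.00441). F11r, a tight junction protein, was lower at 6 h by a log2 difference of -0.73 ± 0.10 (adjusted p = 0.000974) and at 12 h by -0.37 ± 0.10 (adjusted p = 0.0447).

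Of 15 measured endothelial markers in a list of 16, limma called none at 3 h, where 4 had an unadjusted p under 0.05, and called 2 higher and 5 lower at 6 h. At 12 h it called 1 higher and 3 lower, and at 48 h 1 higher and 1 lower against the early shams, when 3.32% of all genes were called lower. The list's median difference was 0.09, -0.47, -0.37 and 0.20 at 3, 6, 12 and 48 h. Between 12 and 48 h, when Sele fell, 7 of the markers were called higher and 3 lower, with a median difference of 0.64. Cldn5, the main claudin of the blood-brain barrier, had -1.08, -1.25 and -0.92 at 6 h after injury, against 0.35, 0.37 and 0.58 in the early shams, a log2 difference of -1.52 ± 0.17 (adjusted p = 0.000209). The transporters Slco1a4 and Abcg2 were lower at 6 h by log2 differences of -1.91 ± 0.46 and -1.77 ± 0.38 (adjusted p = 0.0421 and 0.0246), while Flt1 and Esam were higher by 0.69 ± 0.15 and 0.47 ± 0.11. Pecam1, a pan-endothelial marker picked after its values were seen, had -0.19, 0.02 and -0.09 at 6 h, against -0.21, -0.11 and -0.15 in the early shams. The mean of the marker list was -0.52 to -0.40 at 6 h, against -0.03 to 0.22 in the early shams, so Sele was at its highest in arrays where these markers were on average low.

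**Figure D4:**
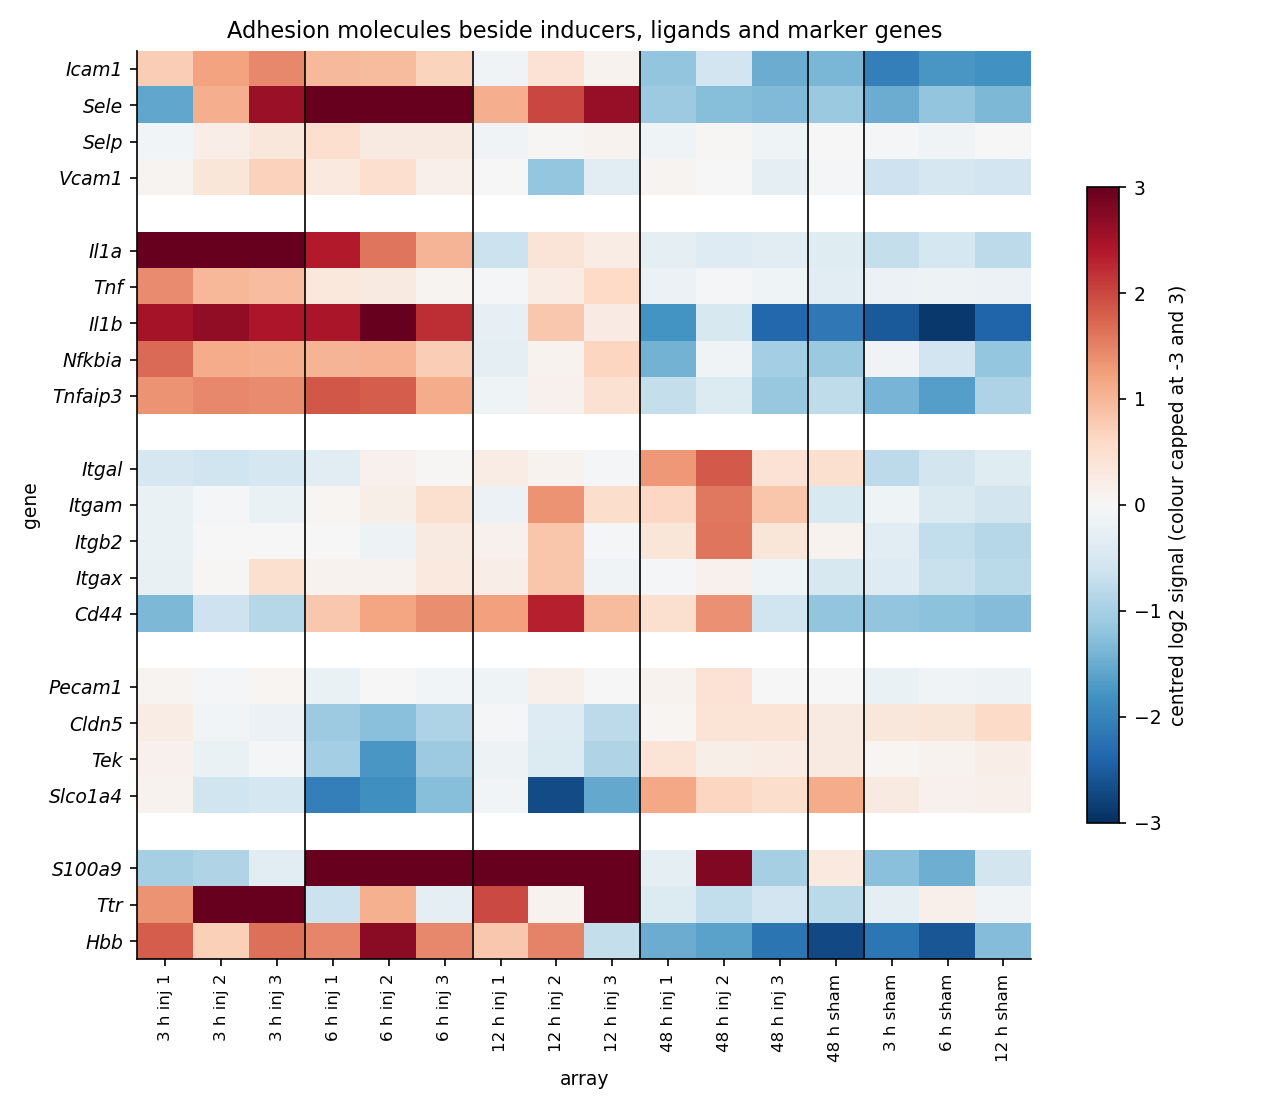
Centred log2 signal (colour, capped at -3 and 3) of the 4 adhesion molecules, 5 inducers and NF-kB genes, 5 leukocyte genes, 4 endothelial markers and 3 markers of other cells, in all 16 arrays. Sele is at 3.13 to 3.23 in the 6 h arrays, in which Cldn5 is at -1.25 to -0.92.

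The genes whose signal was most like that of each member over the 16 arrays, by Pearson r, were found among all 14218 genes. They are given as a description, since the arrays share groups and any gene that follows injury will correlate. Icam1 was closest to the cytokine Il1b (0.976), the chemokine Ccl3 (0.962), the NF-kB inhibitor Tnfaip3 (0.956), the NF-kB subunit Nfkb2 (0.953) and the chemokine Cxcl2 (0.94). Sele was closest to Ptges (0.949), the inducible enzyme of prostaglandin E2 synthesis, and then to Steap1 (0.946), Bcl3 (0.937), Cxcl11 (0.937) and Ebi3 (0.922). Ptges itself was higher by 2.94 ± 0.38 at 6 h (adjusted p = 0.000744). Selp was closest to Hyls1 (0.917), Runx3 (0.9), Birc3 (0.883), Ripk2 (0.874) and Ccl9 (0.857). Vcam1 was closest to Ibsp (0.885), Slc26a3 (0.849), Esrra (0.818), Depp1 (0.817) and Sdcbp (0.796). Among the members, Sele and Selp were most alike (0.816), followed by Icam1 and Sele (0.783) and Icam1 and Selp (0.732), and Sele and Vcam1 least (0.374).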

How the data were processed

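The deposited values, taken as log2 since their base is not stated, were made with RMA per the submitters' processing notes, for 31099 probe sets on 16 arrays. In the deposited values each probe set's median over the arrays is 0, so neither level nor detection can be read. Gene names came from GEO's platform annotation, with symbols updated through the gene identifier for 20764 of 20832 probe sets with 1 symbol. Probe sets of a gene were averaged, with no filter on low values. One linear model of 6 groups (10 residual degrees of freedom) was fitted with limma 3.58.1 in R 4.3.3 and tested on simulated data. The single 48 h sham was given the spread of the replicated groups. Shared animals or processing days are not stated in the labels, so p-values reflect only the spread between these arrays, whose small number sets the precision. Members and gene lists were chosen with earlier results of these data known. At most 3 called genes per list, comparison and direction were to be named, those with the largest changes, and 5 genes per member by likeness. Alternatives were other probe set rules, normalizations, filters, shams, array weights, a replicate block and leaving out arrays.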

Additional observations from a re-analysis of the deposited data

Results flagged for a closer look

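In the model of all 16 arrays, shams included, the level in injured cortex differed between 12 and 48 h for 2 of 4 genes. With the early shams as the control at both times, this is also the difference between the effects of injury at 12 and 48 h; with the 48 h sham as the control at 48 h, that difference was not tested. For Icam1 the log2 difference of 48 h against 12 h in injured cortex was -1.23 ± 0.22 (adjusted p = 0.00295), lower in 3 of 3 arrays than any 12 h array. For Sele it was -3.12 ± 0.70 (adjusted p = 0.0095), again lower in 3 of 3 arrays. Both steps kept their call when any of the 6 arrays was left out, at adjusted p-values up to 0.0145 and 0.0348.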

How the results depend on the processing

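Of 505 repeats of the 36 member results under other settings, 457 kept direction and side of the threshold; the cause of the others was not tested unless the setting itself shows it. Against the early shams at 3 h, Vcam1 passed with quantile normalization (1.03), with only the arrays compared (0.95) and with array weights (0.94), and Sele with array weights (2.27); leaving out each array gave Sele 1.11 to 3.17. At 6 h, Selp passed with the probe set 1391946_at by itself or as the one of widest spread (0.73), quantile normalization (0.45), only the arrays compared (0.40), array weights (0.40) and all 4 shams (0.39). Vcam1 passed at 6 h with quantile normalization, the least variable genes left out, only the arrays compared and array weights (0.90, 0.89, 0.89 and 0.90). With only the sham of the same time, which leaves 1 control array, Sele did not pass at 6 or 12 h (4.35 and 3.25). At 12 h leaving out arrays gave Sele 2.88 to 3.65 and Vcam1 -0.17 to 0.42, Vcam1 was -0.046 with all 4 shams, and Selp was -0.073 with 1369374_at. At 48 h against the early shams Icam1 did not pass with quantile normalization (0.44), only the arrays compared (0.79) or all 4 shams (0.66), and gave 0.53 to 0.998 without single arrays. Vcam1 passed there with only the arrays compared (0.50), Sele was -0.21 with quantile normalization, and Selp was 0.04 with 1391946_at or the widest probe set and -0.074 to 0.006 without single arrays. Against the 48 h sham Selp was 0.03 with 1369374_at, and Vcam1 0.036 with array weights and -0.09 to 0.085 without single arrays. For the 48 h sham against the early shams Selp was -0.11 with 1369374_at and Sele -0.11 with quantile normalization. For 6 h against 3 h Vcam1 was -0.20 to 0.10 without single arrays, and Sele passed with array weights (2.19) and without injured 3 h replicate 3 (3.41). For 48 h against 12 h Icam1 did not pass with only the arrays compared (adjusted p = 0.0532).

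The number of all genes called was 83, 379, 692 and 1377 at 3, 6, 12 and 48 h against the early shams, with ranges over the settings of 9 to 564, 70 to 1024, 77 to 1230 and 482 to 2406. It was 0 (0 to 129) against the 48 h sham, 1 (0 to 70) for the 48 h sham, and 170 (39 to 1204), 2 (0 to 45) and 2180 (388 to 2563) for the 3 steps. The injured arrays share replicate numbers across times. Same-numbered arrays of neighbouring times correlated at -0.188 to 0.193 in their deviations from the group means. Different-numbered arrays were not compared, so these values cannot show whether the numbers pair arrays. With the replicate number as a block in a fit of the 12 injured arrays, the step of 48 h against 12 h was -1.23 for Icam1 and -3.12 for Sele (adjusted p = 0.00732 and 0.019), and no member's call changed. Few arrays, and signals with no detection call, limit what small changes in Selp can show.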
